A study of Homo sapiens with 12 samples.

Results

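The genes described are 10 members of the hypoxia-inducible factor (HIF) pathway, taken from the 23710 genes counted in every library by their symbols: HIF1A, EPAS1, ARNT, VHL, EGLN1, EGLN3, CA9, VEGFA, SLC2A1 and KDM3A. RNA-seq was performed on RCC4 cells, an established clear cell renal carcinoma line that lacks functional VHL protein. The cells received 40 pmol of siRNA and were profiled 72 h later. MESH1, the gene named HDDC3 in the counts, encodes an NADPH phosphatase, and its knockdown was compared with a non-targeting siRNA (siNT). In experiment 1, 3 libraries of siMESH1#1 were set against 3 of siNT, and in experiment 2, 3 libraries of siMESH1#2 were set against 3 other siNT libraries. All 4 groups share the cell line and its VHL defect, and no VHL-restored cells or hypoxic cultures are compared here.

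HIF is a heterodimer of an oxygen-labile alpha subunit and the stable ARNT protein. In oxygenated cells, prolyl hydroxylases of the EGLN family modify the alpha subunits, the VHL ubiquitin ligase then binds the modified form, and the proteasome degrades it. Without functional VHL the alpha subunits persist in the presence of oxygen, and genes for glucose uptake, acid handling and vessel growth are transcribed, which is a hallmark of clear cell renal carcinoma. The libraries hold mRNA, so they do not report the amount or the hydroxylation of HIF protein.

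The siRNA target sites are shown because both siRNAs are judged by the same intended gene, which they address at different places. Positions are on GRCh38 with GENCODE 29, on the minus strand of chromosome 15, and capitals mark the bases that pair with the seed (bases 2 to 8 of the siRNA guide strand).
siMESH1#1 target: gggaatcactgACATTGTg
siMESH1#2 target: ctgaaggtctcctGCTAACTa
The target of siMESH1#1 lies at 90932064 to 90932082, in the coding part of exon 2 of HDDC3. The target of siMESH1#2 lies at 90931109 to 90931129, in the 3'UTR in exon 4.

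HDDC3, the targeted gene, was at 8.23, 6.46 and 7.75 CPM in siNT of experiment 1. With siMESH1#1 it was at 0.158, 0 and 0.316 CPM, from 5, 0 and 11 reads. In experiment 2 it was at 13.9, 13.1 and 12.7 CPM in siNT and at 1.25, 1.18 and 1.72 CPM with siMESH1#2. HDDC3 fell from 7.48 ± 0.913 CPM (read counts relative to the library's total, scaled by TMM within each experiment; mean ± SD, n = 3) to 0.158 ± 0.158 with siMESH1#1, and from 13.2 ± 0.630 to 1.38 ± 0.291 with siMESH1#2. The log2 fold changes, before the GC correction described below, were -5.56 and -3.25 (edgeR quasi-likelihood test, adjusted p = 0.00174 and 2.51e-12). Libraries held 34063155 to 49134129 reads in genes in experiment 1 and 24787804 to 31651125 in experiment 2. The renal lineage markers PAX8 and PAX2 were present in every group. With siMESH1#1 they stood at 34.7% and 33.6% of siNT before GC correction, and their direction turned with it (values below). With that siRNA KRT8 stood at 12.9% of siNT, KRT18 at 3.57% with 0.286 CPM in its lowest library, VIM at 99.3%, and CDH2 was 3.10-fold higher. With siMESH1#2 these 6 markers ranged from 79.5% of siNT for KRT18 to 147% for CDH2. Of 7 markers of other cell types, PECAM1 and HBB had no read in any group, ALB, CDH5, PTPRC and UMOD stood at 0.146 CPM or less in every group, and COL1A1 at 3.96 to 27.9 CPM.

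Signs of library composition moved with siMESH1#1. Reads outside annotated genes made up 18.4% to 20.8% of its libraries against 14.7% to 15.5% in siNT of experiment 1, and 14482 to 14944 genes had a read against 15743 to 15775. In experiment 2 the shares were 10.2% to 12.2% with siMESH1#2 and 10.0% to 11.2% in siNT. The spread between libraries, as the biological coefficient of variation fitted by edgeR, was 0.299 in the first experiment against 0.0490 in the second. The chi-square per degree of freedom between libraries of a group was 65.2 to 274.6 for siMESH1#1, highest between replicates 2 and 3, and 2.24 to 15.2 in the other groups. The part of these differences in the changes below was not tested. The labels call the 3 libraries of each group biological replicates and do not say how the cultures were separated.

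A trend that runs through all genes bears on every value of siMESH1#1. When the genes tested were split into 10 classes by transcript GC content, the median log2 fold change with siMESH1#1 went from 1.11 in the class of lowest GC content to -3.67 in the highest. With siMESH1#2 it went from 0.14 to -0.093. HIF1A (36.38% GC) lies in the lowest class and CA9 (60.07%) in the class next to the highest. A GC-corrected value, for which a smooth of log2 CPM on GC content was removed from each library, therefore stands beside the changes of the named genes with siMESH1#1. The correction leaves a median change over all genes of 0.18, against -0.047 without it. Values after correction depend on how the smooth is centred, and with centred smooths the median was -0.50. Member values with centred smooths are given too. With uncentred smooths, HDDC3 was at -3.67 with siMESH1#1 (edgeR adjusted p = 0.000665) and at -3.12 with siMESH1#2 (adjusted p = 5.79e-15). PAX8 and PAX2 turned to 0.56 and 2.02 with siMESH1#1 (edgeR adjusted p = 0.00339 and 0.000424). KRT8 was at -1.84, KRT18 at -3.12 and CDH2 at 1.30 with that siRNA. What gives rise to the trend was not tested.

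**Figure D1:**
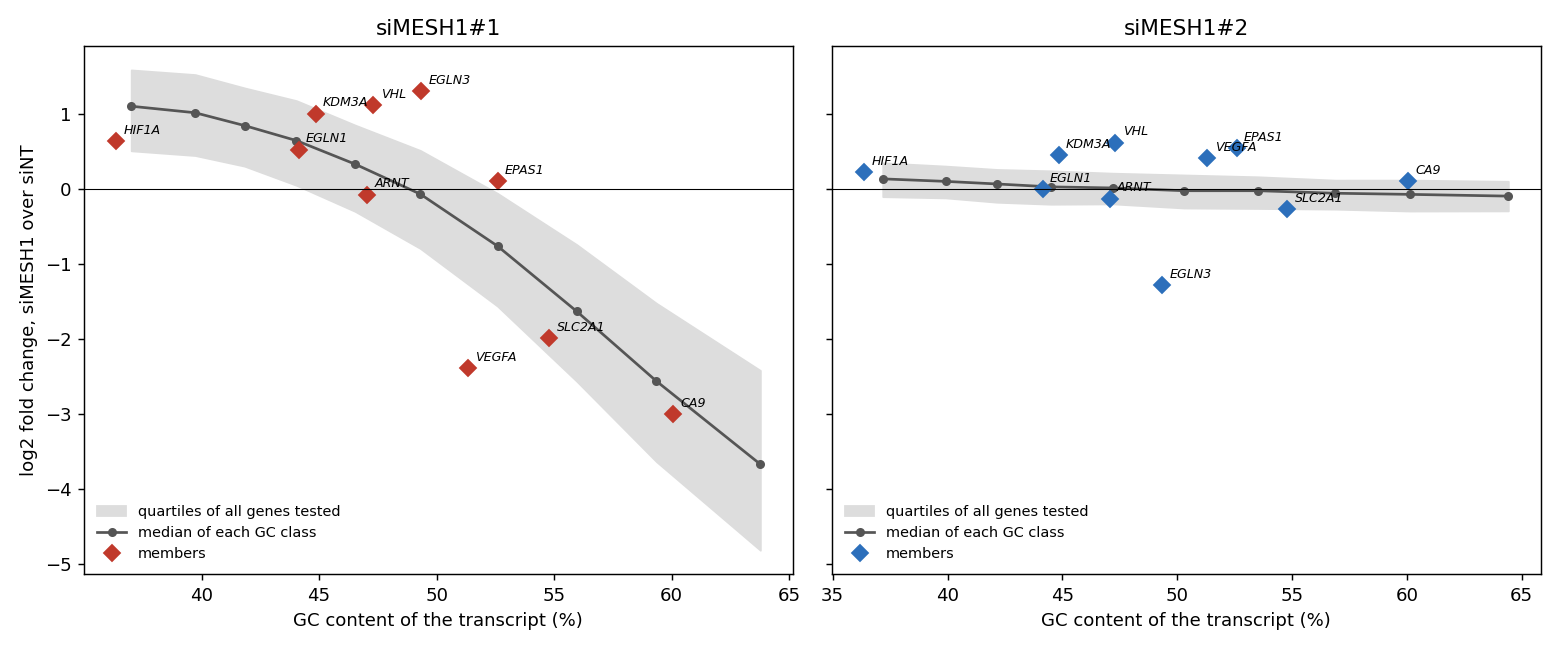
Log2 fold change against the GC content of the transcript (%) for siMESH1#1 (left) and siMESH1#2 (right). Grey line and band show the median and quartiles of all genes tested in 10 GC classes, and diamonds show the members. With siMESH1#1 the class median falls from 1.11 to -3.67, CA9 lies inside the band and VEGFA lies below it.

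With siMESH1#1, VHL, EGLN3, KDM3A, HIF1A and EGLN1 were higher and CA9, VEGFA and SLC2A1 were lower than in siNT. With siMESH1#2, EPAS1, VHL, KDM3A, VEGFA and HIF1A were higher and EGLN3, SLC2A1 and ARNT were lower. The counts of members called by edgeR at an adjusted p under 0.05 stand beside those of all genes. With siMESH1#1, 5 of the 10 members were higher where 36.9% of all 13395 genes tested were, and 3 were lower where 37.2% were. With siMESH1#2, 5 were higher where 26.6% of 13568 genes were, and 3 were lower where 26.7% were. All 10 members passed the filter on low counts in both experiments. Groups did not overlap for 8 members with siMESH1#1, against 82.7% of all genes, and for 9 with siMESH1#2, against 59.5%. After GC correction of siMESH1#1, 4 members were higher (all genes 41.3%) and 3 were lower (26.7%). After GC correction of siMESH1#2, 6 members were higher and 2 lower, where 5324 and 3198 of 13568 genes were.

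**Figure D2:**
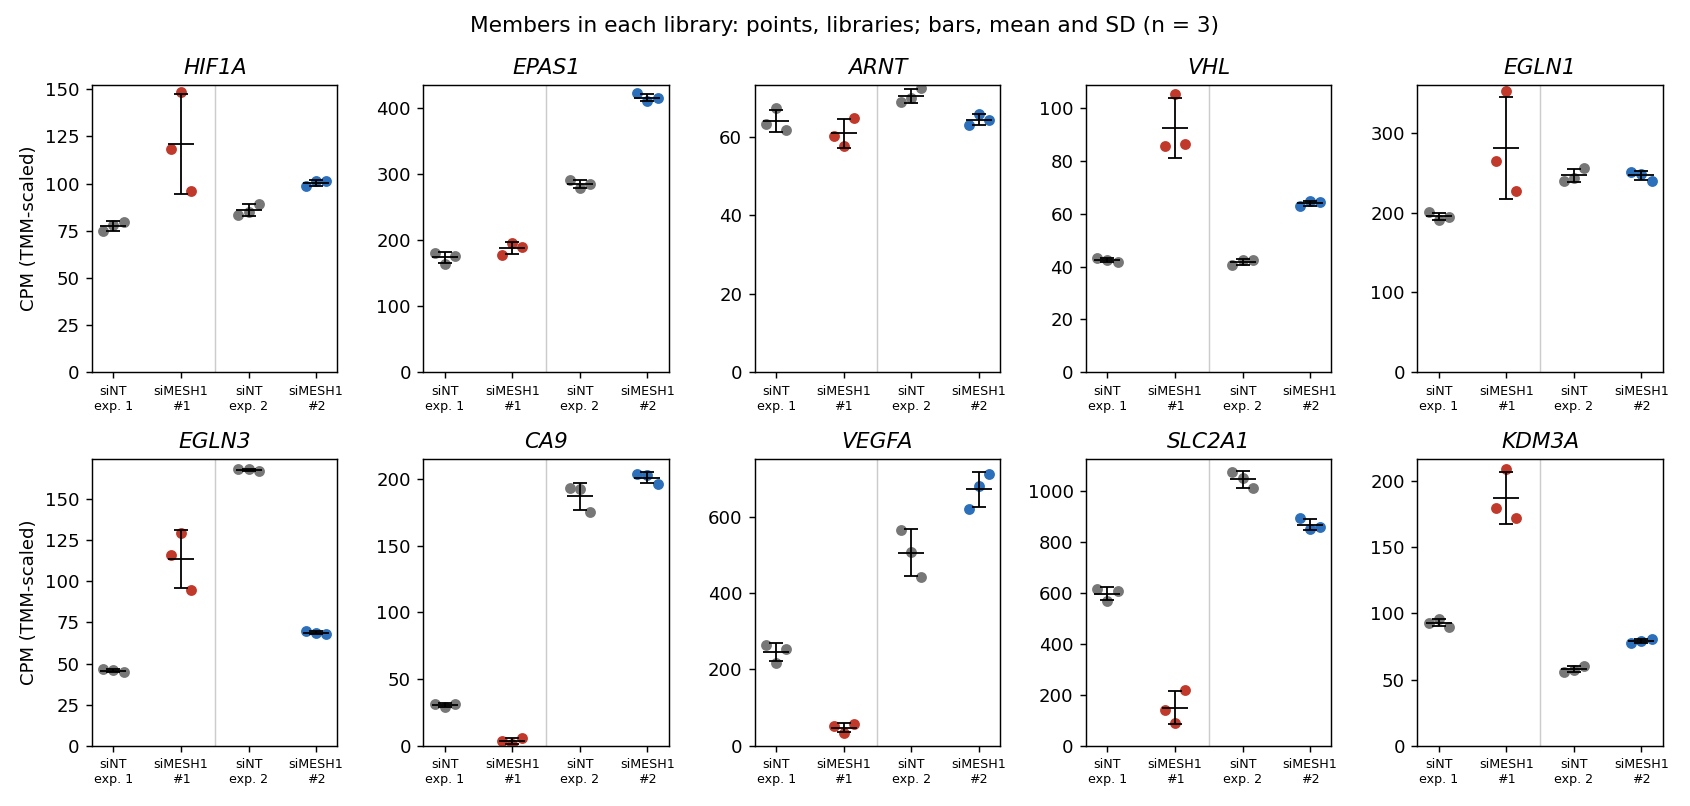
TMM-scaled CPM of each member in each of the 12 libraries, with the mean and SD of 3 libraries per group. EGLN3 rises in experiment 1 and falls in experiment 2, and CA9, VEGFA and SLC2A1 fall in experiment 1 with no overlap between groups.

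The alpha subunits were described first. HIF1A encodes the alpha subunit of HIF-1. It was at 74.7, 78.0 and 79.7 CPM in siNT of experiment 1 and at 118, 149 and 96.2 CPM with siMESH1#1. The siMESH1#1 libraries all lay above siNT and differed widely among themselves. The log2 fold change was 0.64 (SE 0.167, edgeR adjusted p = 0.0140), and after GC correction it was -0.24 (adjusted p = 0.00984), so its direction turned with the correction. With centred smooths it was -0.93. Without siNT replicate 1 of experiment 1 the adjusted p was 0.0533. In experiment 2, HIF1A was at 83.2, 84.8 and 89.3 CPM in siNT and at 98.8, 101 and 101 CPM with siMESH1#2. These groups did not overlap, and the log2 fold change was 0.23 (SE 0.0489, edgeR adjusted p = 0.000827). In a model of all 4 groups the call with siMESH1#2 was lost (edgeR adjusted p = 0.294).

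EPAS1 encodes the alpha subunit of HIF-2, the isoform most often tied to clear cell renal carcinoma. In experiment 1 it was at 181, 164 and 176 CPM in siNT and at 177, 195 and 189 CPM with siMESH1#1. The groups overlapped, with a log2 fold change of 0.11 (SE 0.0832, edgeR adjusted p = 0.279). After GC correction the change was 1.11 (adjusted p = 0.00714), and with centred smooths it was 0.36 and not called (adjusted p = 0.0595). In experiment 2 EPAS1 was at 290, 278 and 285 CPM in siNT and at 422, 411 and 414 CPM with siMESH1#2, a log2 fold change of 0.55 (SE 0.0403, edgeR adjusted p = 7.30e-09). Every siMESH1#2 library lay well above every siNT library.

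ARNT encodes the partner that both alpha subunits need to bind DNA. It was at 63.2, 67.3 and 61.8 CPM in siNT of experiment 1 and at 60.1, 57.7 and 64.9 CPM with siMESH1#1. The groups overlapped, and the log2 fold change was -0.074 (SE 0.0960, edgeR adjusted p = 0.505). After GC correction it was -0.14 (adjusted p = 0.0790), and with centred smooths -0.83 and called (adjusted p = 0.00616). In experiment 2, ARNT went from 70.4 ± 1.86 CPM in siNT to 64.4 ± 1.47 CPM with siMESH1#2. This was a log2 fold change of -0.13 (SE 0.0506, edgeR adjusted p = 0.0426) without overlap between groups, and the call was lost under 12 of 18 alternatives.

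Per kilobase of transcript, EPAS1 exceeded HIF1A in every group before any GC correction. The ratio of EPAS1 to HIF1A per length was 1.72 ± 0.121 in siNT and 1.22 ± 0.256 with siMESH1#1 in experiment 1. In experiment 2 it was 2.54 ± 0.115 in siNT and 3.17 ± 0.0900 with siMESH1#2. Before GC correction the ratio was lower with the first siRNA and higher with the second, without overlap. After it, mean EPAS1 went from 125 to 270 CPM and HIF1A from 104 to 88.5 CPM with siMESH1#1, which turns the direction of the ratio in experiment 1.

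Among the sensors and the ligase, VHL encodes the substrate-binding part of the ligase, and its transcript is still made in these cells. It was at 43.3, 42.6 and 41.9 CPM in siNT of experiment 1 and at 85.7, 106 and 86.5 CPM with siMESH1#1. The change was a 2.17-fold rise, 1.12 on the log2 scale (SE 0.116, edgeR adjusted p = 0.000579), and it was 1.09 after GC correction (adjusted p = 0.000573) and 0.37 with centred smooths (adjusted p = 0.0321). In experiment 2, VHL was at 40.5, 42.3 and 42.4 CPM in siNT and at 63.0, 64.7 and 64.5 CPM with siMESH1#2, a log2 fold change of 0.62 (SE 0.0523, edgeR adjusted p = 3.96e-08). VHL thus rose with both siRNAs. The siNT values of the experiments were scaled separately, so their levels are not on a common scale.

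EGLN1 encodes the main HIF prolyl hydroxylase in oxygenated cells. It was at 200, 191 and 194 CPM in siNT of experiment 1 and at 265, 352 and 226 CPM with siMESH1#1. The log2 fold change of 0.53 (SE 0.169, edgeR adjusted p = 0.0295) was 0.088 after GC correction (adjusted p = 0.542) and -0.63 with centred smooths. Of 20 alternatives, 14 lost the call, 2 turned the direction and 4 kept the result. In experiment 2 the means were 247 ± 8.44 CPM in siNT and 247 ± 5.84 CPM with siMESH1#2, and the groups overlapped (edgeR adjusted p = 0.988).

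EGLN3 encodes a hydroxylase that is itself a HIF target. It was at 46.4, 45.8 and 44.96 CPM in siNT of experiment 1 and at 116, 130 and 94.8 CPM with siMESH1#1, a 2.48-fold rise. The log2 fold change was 1.31 (SE 0.134, edgeR adjusted p = 0.000570), 1.61 after GC correction (adjusted p = 0.000905) and 0.87 with centred smooths. In experiment 2, EGLN3 was at 168, 168 and 167 CPM in siNT and at 70.0, 68.6 and 67.9 CPM with siMESH1#2, or 41.0% of siNT. This log2 fold change was -1.29 (SE 0.0457, edgeR adjusted p = 7.32e-13). EGLN3 was therefore the member with called changes of like size and opposite sign.

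Among the targets, CA9 encodes carbonic anhydrase IX, a cell-surface enzyme of acid handling used as a marker of clear cell renal carcinoma. It was at 31.1, 28.9 and 31.5 CPM in siNT of experiment 1 and at 3.73, 1.53 and 6.16 CPM with siMESH1#1, from 118, 59 and 214 reads. The groups were far apart, at 12.5% of siNT, a log2 fold change of -3.003 (SE 0.499, edgeR adjusted p = 0.00266). After GC correction the change was -0.17 (SE 0.123, adjusted p = 0.248) and no longer passed the test, while with centred smooths it was -0.86 and called (adjusted p = 0.00391). In experiment 2, CA9 was at 193, 193 and 175 CPM in siNT and at 204, 203 and 196 CPM with siMESH1#2. These groups did not overlap, and the log2 fold change of 0.10 (SE 0.0478) missed the threshold (edgeR adjusted p = 0.0770). It was 0.24 and called after GC correction (adjusted p = 9.06e-07), one of 5 among 18 alternatives that called it.

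VEGFA encodes the secreted growth factor of vessels. It was at 265, 218 and 254 CPM in siNT of experiment 1 and at 51.4, 33.4 and 56.5 CPM with siMESH1#1, or 19.2% of siNT. The log2 fold change was -2.38 (SE 0.219, edgeR adjusted p = 0.000443) and it was -1.77 after GC correction (adjusted p = 3.37e-05) and -2.46 with centred smooths. In experiment 2, VEGFA was at 566, 509 and 443 CPM in siNT and at 621, 682 and 712 CPM with siMESH1#2, a log2 fold change of 0.41 (SE 0.0694, edgeR adjusted p = 0.000103). The fall with one siRNA and the rise with the other each lay outside the range of their siNT libraries. In a model of all 4 groups the call with siMESH1#2 was lost (edgeR adjusted p = 0.161).

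SLC2A1 encodes the glucose transporter GLUT1. It was at 615, 566 and 606 CPM in siNT of experiment 1 and at 140, 90.9 and 219 CPM with siMESH1#1. The log2 fold change of -1.99 (SE 0.317, edgeR adjusted p = 0.00226) was -0.54 after GC correction (adjusted p = 0.000351) and -1.23 with centred smooths. In experiment 2, SLC2A1 went from 1044 ± 31.8 CPM in siNT to 867 ± 21.6 CPM with siMESH1#2, a log2 fold change of -0.27 (SE 0.0406, edgeR adjusted p = 3.31e-05). It fell with both siRNAs, with no siMESH1 library inside the siNT range in either comparison. In a model of all 4 groups the call with siMESH1#2 was lost (edgeR adjusted p = 0.530).

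KDM3A encodes a histone demethylase of H3K9 that HIF induces. It was at 93.0, 95.8 and 90.0 CPM in siNT of experiment 1 and at 180, 209 and 172 CPM with siMESH1#1, a 2.01-fold rise. The log2 fold change was 1.01 (SE 0.102, edgeR adjusted p = 0.000558), 0.66 after GC correction (adjusted p = 0.000285) and -0.038 with centred smooths (adjusted p = 0.822). In experiment 2, KDM3A was at 55.8, 57.4 and 60.3 CPM in siNT and at 77.3, 78.9 and 80.8 CPM with siMESH1#2, a log2 fold change of 0.45 (SE 0.0519, edgeR adjusted p = 1.65e-06). With 3 libraries a group, the smallest two-sided p of an exact permutation test is 0.1, so single members were judged by the fit across all genes. In bulk RNA, fewer cells expressing a gene and less RNA per cell cannot be told apart.

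**Figure D3:**
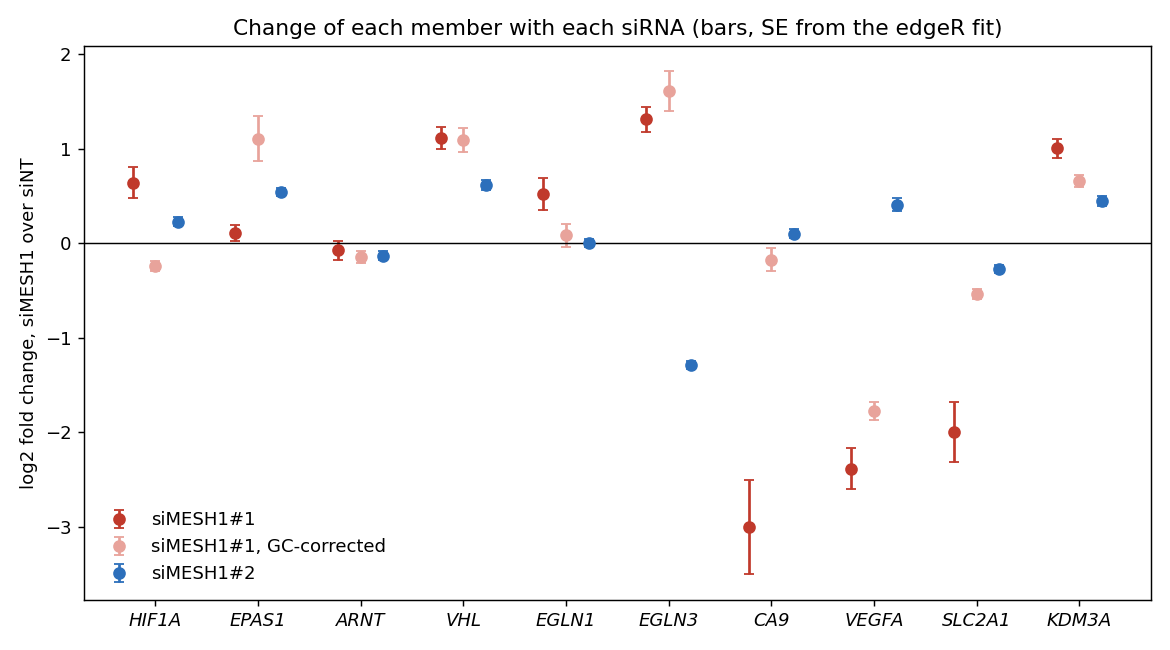
Log2 fold change of each member, siMESH1 over siNT, with SE, for siMESH1#1 before and after GC correction and for siMESH1#2. VHL and KDM3A lie above 0 in all 3 series, SLC2A1 lies below 0 in all 3, and EGLN3 and VEGFA lie on opposite sides for the siRNAs.

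The difference between the siRNAs was tested in 1 fit of all 12 libraries, scaled together. In that scaling the median change of all genes was -0.27 with siMESH1#1, against -0.047 in its own fit. With siMESH1#2 it was -0.0036, against 0.0053. The differences below therefore need not equal the gap between the separate changes given above. Before GC correction, called changes went in the same direction with both siRNAs for 4 members (HIF1A, VHL, SLC2A1 and KDM3A). Of the 12824 genes tested in both experiments, 30.7% did so. They went in opposite directions for 2 members (EGLN3 and VEGFA), against 11.6%. With uncentred GC correction, HIF1A was called in opposite directions, at -0.24 and 0.17 (edgeR adjusted p = 0.00984 and 0.000416). EPAS1 was then called higher with both, at 1.11 and 0.65 (edgeR adjusted p = 0.00714 and 1.12e-13). The shares of all genes after correction were not counted. The change differed between the siRNAs for 7 members, where 69.7% of 14154 genes differed. The largest differences, siMESH1#1 minus siMESH1#2, were -3.26 for CA9 (SE 0.481, edgeR adjusted p = 0.000201), -2.94 for VEGFA (SE 0.255, adjusted p = 7.35e-06) and 2.45 for EGLN3 (SE 0.138, adjusted p = 7.08e-07). SLC2A1 (-1.87), EPAS1 (-0.59), KDM3A (0.41) and VHL (0.35) also differed, with edgeR adjusted p from 0.000255 to 0.0249. For VHL, 10 of 24 alternatives lost the call and 1 turned the direction. HIF1A, ARNT and EGLN1 missed the threshold, with differences of 0.26 (SE 0.179), -0.096 (SE 0.103) and 0.37 (SE 0.181). The GC-corrected differences were -0.38 for CA9, -2.28 for VEGFA and 2.80 for EGLN3 (edgeR adjusted p = 0.00527, 3.11e-07 and 2.33e-06). For HIF1A the GC-corrected difference was -0.49 (edgeR adjusted p = 0.000111). For EPAS1 it turned to 0.48 and was not called (adjusted p = 0.140), for KDM3A it was 0.11 and not called (adjusted p = 0.191), for SLC2A1 it was -0.34 (adjusted p = 0.00152) and for VHL 0.36 (adjusted p = 0.0362).

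The siRNA, the experiment and the sequencing lanes cannot be told apart in that difference. The siNT libraries themselves differed between the experiments, at 30.5 ± 1.40 against 187 ± 10.2 CPM for CA9 and at 45.7 ± 0.742 against 168 ± 0.547 CPM for EGLN3. VHL stood at 42.6 ± 0.714 and 41.7 ± 1.07 CPM in the same groups. These values were scaled within each experiment and not together, so small gaps or likenesses between the experiments are not shown by them. The transcripts of CA9, EGLN3 and VHL have GC contents of 60.07%, 49.35% and 47.31%. Whether the siNT levels of the experiments differ along GC content was not tested. In experiment 1, lanes 4 and 6 each held 1 library of siNT and 1 of siMESH1#1. Within those lanes the log2 ratios were -2.34 and -3.08 for CA9, -2.23 and -2.31 for VEGFA, and 1.03 and 1.37 for EGLN3. All libraries of experiment 2 came from lane 2. Reads set aside for low alignment quality made up 6.31% to 7.59% in experiment 1 and 0% in experiment 2. Reads without a unique alignment made up 9.98% to 12.6% and 23.6% to 27.1%. The part of these shares in the differences was not tested.

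Per kilobase of transcript, SLC2A1 had the highest siNT level and VEGFA the next in both experiments, at 162 ± 7.14 and 69.5 ± 6.99 CPM per kb in experiment 1 and 285 ± 8.66 and 143 ± 17.4 in experiment 2. VHL had the lowest, at 11.4 ± 0.191 and 11.2 ± 0.287 CPM per kb. Without GC correction, CA9 ranked 6 of 10 in experiment 1 and 3 of 10 in experiment 2. In experiment 1, HIF1A, CA9 and KDM3A overlapped with their neighbours in the order, and in experiment 2 KDM3A overlapped with VHL.

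**Figure D4:**
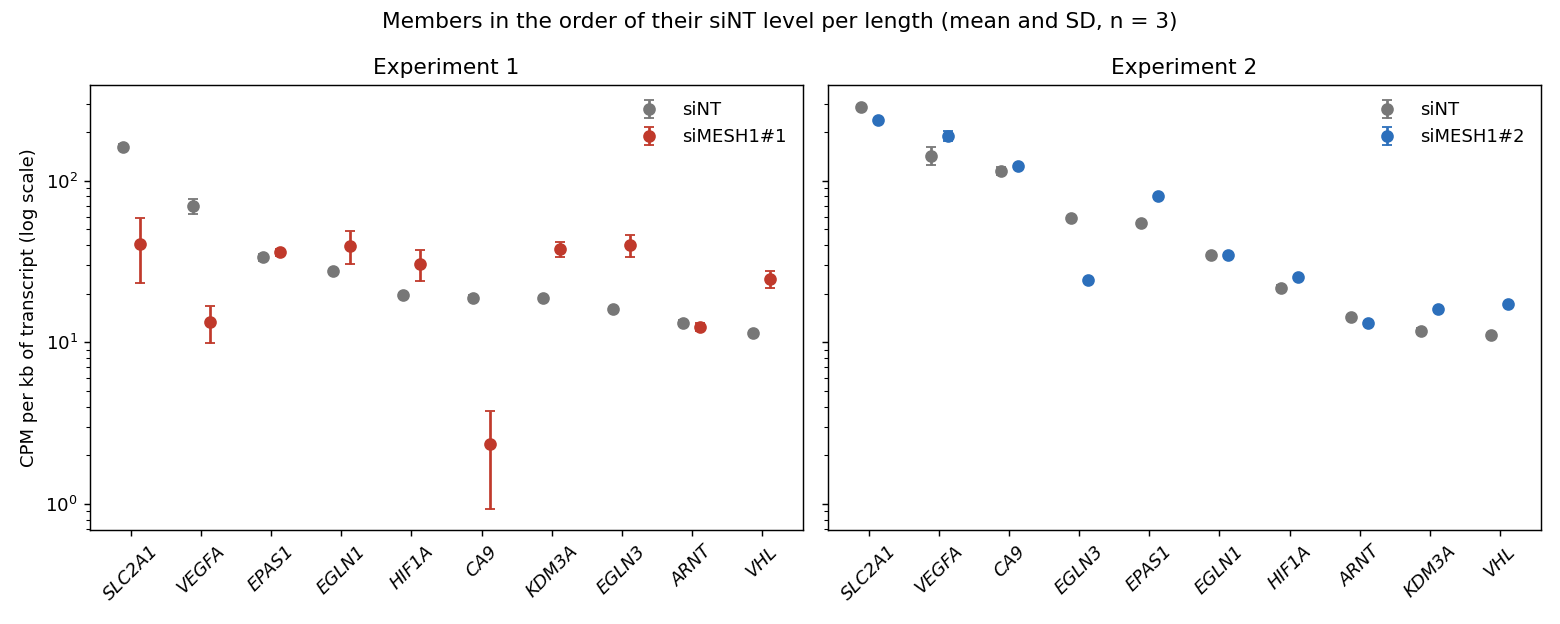
CPM per kb of transcript (log scale) of the members in siNT and siMESH1 libraries, ordered by the siNT mean in each experiment (mean and SD, n = 3). SLC2A1 and VEGFA lead both orders, and CA9 is last with siMESH1#1 at 2.35 CPM per kb.

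Matches to the siRNA seeds in the members' 3'UTRs were searched in the longest GENCODE 29 transcript of each. The letters matching the seed of siMESH1#1 are ACATTGT, and 14.3% of 18531 3'UTRs hold them. They were found 7 times in 5 members, and these windows are shown because the 5 members include EGLN3, which rose with siMESH1#1, and VEGFA, which fell (GRCh38, match in capitals).
HIF1A, chr14:61747667-61747673, plus strand: ggaacatgACATTGTtaatcata
HIF1A, chr14:61748160-61748166, plus strand: ttctatgtACATTGTacaaattt
ARNT, chr1:150811586-150811592, minus strand: accatgaaACATTGTaggtatat
EGLN1, chr1:231365755-231365761, minus strand: tttttttgACATTGTcaataacg
EGLN3, chr14:33949827-33949833, minus strand: gacccagcACATTGTtagaccat
VEGFA, chr6:43785509-43785515, plus strand: gaagagacACATTGTtggaagaa
ARNT held another match. EPAS1, VHL, CA9, SLC2A1 and KDM3A held none. The letters for siMESH1#2, GCTAACT, occur in 5.53% of 3'UTRs and in 0 of the 10 members. Whether these matches bear on any change was not tested. The shares over all 3'UTRs were not matched for length, and the members' 3'UTRs ran from 134 bases (CA9) to 2660 (EGLN1). The count of members with a match is therefore not a measure of enrichment.

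HIF binds a core of ACGTG or GCGTG. Among RefSeq promoters (GRCh38.p14, 250 bases before to 50 after the start), 21.4% hold ACGTG on either strand, 36.5% hold GCGTG and 48.4% hold at least one of them. Promoters were listed for 8 members, and 6 of these held a core. The windows of CA9, EGLN1 and SLC2A1 are shown as examples of a core close to the start, with the core in capitals.
CA9, chr9:35673900-35673924, plus strand: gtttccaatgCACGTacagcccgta
EGLN1, chr1:231422286-231422310, minus strand: gccgtggtgtACGTGcagagcgcgc
SLC2A1, chr1:42958829-42958853, minus strand: gcaacagcgaGCGTGccggtcgcta
In CA9 the core ACGTG is on the opposite strand and starts at position -18 from the start of the gene. In EGLN1 it starts at -13, and in SLC2A1 the core GCGTG starts at 26. ARNT and EGLN3 held none in this window, and VHL and VEGFA had no listed promoter.

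Genes of the wider pathway were grouped in 5 lists. Their counts are read against the shares of all genes, 36.9% higher and 37.2% lower with siMESH1#1 and 26.6% and 26.7% with siMESH1#2, and their medians against those of all genes, -0.047 and 0.0053. After GC correction of siMESH1#1 the shares were 41.3% and 26.7% and the median 0.18. After GC correction of siMESH1#2, 5324 of 13568 genes were higher and 3198 lower, and the median was 0.075. List counts, list medians and changes of named genes after GC correction are with uncentred smooths. With siMESH1#1, that form gave 5528 genes higher and 3571 lower. Centred smooths gave 1928 higher and 6023 lower, with a median of -0.50. List values with centred smooths are not given, so whether the direction of a list holds in that form is not shown.

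Of the 17 genes for glucose use and glycolysis, 1 was higher and 14 were lower with siMESH1#1, with a median log2 fold change of -2.77. After GC correction 1 was higher and 12 were lower, with a median of -1.10. The median GC content of this list was 55.7%, the highest of the 5 lists. With siMESH1#2, 6 were higher and 5 lower, and the median was -0.0076. After GC correction of siMESH1#2, 12 were higher and 5 lower (median 0.10). GPI, the isomerase of glucose-6-phosphate, had log2 fold changes of -3.31 and -0.27 with the first and second siRNA (edgeR adjusted p = 0.00141 and 2.58e-05), the former -2.37 after GC correction. HK2, a hexokinase, had -1.24 and -0.37 (edgeR adjusted p = 0.000500 and 6.86e-06), the former -0.60 after GC correction. TPI1, triosephosphate isomerase, had -2.77 and -0.24 (edgeR adjusted p = 0.00528 and 0.000123), the former -0.74 after GC correction. PFKFB4, which makes fructose bisphosphate for glycolytic control, had -4.13 and 0.15 (edgeR adjusted p = 0.00197 and 0.0142), the former -2.25 after GC correction. PFKFB3, of the same enzyme family, had -1.41 and 0.24, the former 0.48 and not called after GC correction (adjusted p = 0.198).

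Of the 12 tested genes of the oxygen sensing and HIF complex list, 5 were higher and 4 lower with siMESH1#1 (median 0.21), and 6 and 4 after GC correction (median 0.35). With siMESH1#2, 4 were higher and 1 lower (median 0.025), and 7 and 0 after GC correction (median 0.11). EP300, a coactivator of HIF, rose with both (0.63 and 0.24, edgeR adjusted p = 0.00174 and 0.000443), the former 1.46 after GC correction. CITED2, which competes for that coactivator, rose by 2.12 with siMESH1#1 and fell by 0.11 with siMESH1#2 (edgeR adjusted p = 0.000479 and 0.0314), the former 2.17 after GC correction. CUL2, the scaffold of the VHL ligase, was at 0.95 and 0.15 (edgeR adjusted p = 0.00286 and 0.0427), and the former was 0.13 and not called after GC correction (adjusted p = 0.0911).

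In the list for mitochondria, survival and stress, 4 of 17 genes were higher and 6 lower with siMESH1#1 (median -0.081), and 8 and 8 after GC correction (median 0.22). With siMESH1#2, 9 were higher and 2 lower (median 0.13), and 13 and 3 after GC correction (median 0.20). BHLHE41, a repressor, rose with both siRNAs (2.03 and 0.18, edgeR adjusted p = 0.000252 and 0.00663), as did MXI1, a MYC antagonist (1.62 and 0.13, edgeR adjusted p = 0.000304 and 0.0281). After GC correction the changes with siMESH1#1 were 2.38 for BHLHE41 and 1.15 for MXI1. HILPDA, a lipid droplet protein, fell by 1.15 and by 0.38 (edgeR adjusted p = 0.00523 and 5.96e-05), and the former was -0.60 after GC correction. CA12, a carbonic anhydrase like CA9, fell by 1.68 with siMESH1#1 and rose by 0.45 with siMESH1#2 (edgeR adjusted p = 0.000214 and 1.09e-07), the former -1.25 after GC correction. AK4, an adenylate kinase, rose by 0.81 and fell by 0.81 (edgeR adjusted p = 0.000991 and 2.47e-09), and the rise was 0.22 after GC correction.

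Of 14 tested genes of the matrix, vessel and secreted list, 4 were higher and 9 lower with siMESH1#1 (median -0.83). After GC correction with uncentred smooths 7 were higher and 4 lower, and the median turned to 0.32. With siMESH1#2, 8 were higher and 1 lower (median 0.25), and 9 and 0 after GC correction (median 0.27). PLOD2 and LOX, which modify and cross-link collagen, rose with both siRNAs (PLOD2 1.30 and 0.82, LOX 1.29 and 0.35). After GC correction the changes with siMESH1#1 were 0.44 for PLOD2 and 0.51 for LOX. ADM, a vasodilator peptide, was at -0.78 and -0.19 (edgeR adjusted p = 0.00789 and 0.00329), and its change with siMESH1#1 turned to 2.07 after GC correction (adjusted p = 0.0126). ANGPTL4, a secreted lipase inhibitor, went from 53.4 to 0.641 CPM with siMESH1#1 and from 2.06 to 6.61 CPM with siMESH1#2, log2 fold changes of -6.37 and 1.68, the former -2.94 after GC correction. MMP14, a membrane metalloprotease, was at -2.47 and 0.40, the former -0.10 and not called after GC correction (adjusted p = 0.706).

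In the growth and HIF-2 associated list, 1 of 6 tested genes was higher and 5 lower with siMESH1#1 (median -0.96), and 2 and 4 after GC correction (median -1.08). With siMESH1#2, 1 was higher and 2 lower (median -0.054), and 1 and 2 after GC correction (median -0.013). CCND1, cyclin D1, fell with both siRNAs (-2.67 and -0.61, edgeR adjusted p = 0.000178 and 2.92e-09), the former -2.20 after GC correction. MYC was at -0.27 and -0.26, and the former turned to 1.13 after GC correction (adjusted p = 0.0172). TGFA, a ligand of the EGF receptor, was at -0.48 and 0.66, the former -0.70 after GC correction.

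**Figure D5:**
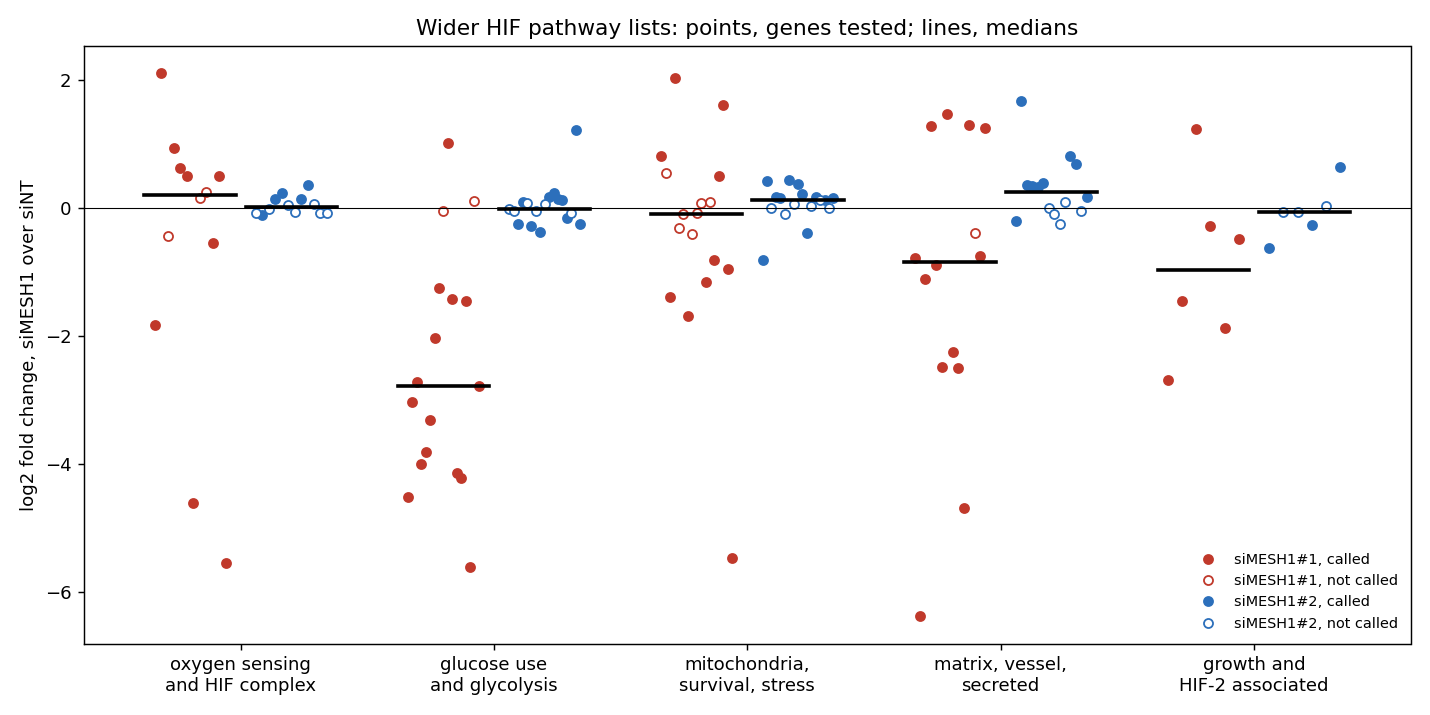
Log2 fold change of each tested gene of the 5 lists with siMESH1#1 (red) and siMESH1#2 (blue); filled points were called, open points were not, and lines mark the medians. The glucose use and glycolysis list has a median of -2.77 with siMESH1#1 and -0.0076 with siMESH1#2.

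The list gene most alike to each member was named by Pearson r over 12 libraries and 75 genes, on log2 CPM less the siNT mean of the experiment. The points share libraries, depth and the GC trend, so r is a description. VHL and KDM3A were most alike to each other (r = 0.992). CA9 was most alike to ENO2 (0.999), SLC2A1 to TPI1 (0.998), VEGFA to PFKFB3 (0.997) and EGLN3 to AK4 (0.995). EPAS1 was most alike to SLC2A3 (0.976), EGLN1 to TCEB1 (0.966) and HIF1A to CUL2 (0.956). ARNT had no close partner, with its highest r at 0.539 for HILPDA.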

How the data were processed

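Whole-number read counts per gene were deposited by the authors for 12 libraries. The submitters' notes name FastQC, HISAT2, HTSeq, DESeq2 and hg19. The authors' own tables of DESeq2 fold changes and p-values were not used. The 10 members and the wider lists were chosen with earlier results of these data known.

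Counts were tested with edgeR 4.0.16 (R 4.3.3; filterByExpr, TMM, glmQLFit, glmQLFTest), each siRNA against siNT of its own experiment, with Benjamini-Hochberg adjustment over all genes tested and a threshold of 0.05. The SE is the log2 fold change divided by the square root of F. The difference between siRNAs came from 1 model of 4 groups. For the GC correction, log2 CPM (prior count 1) was smoothed by lowess, with a span of 0.3, on the GC content of the longest GENCODE 29 transcript, and the fit of each library served as its offset. A form with each smooth centred on 0 was run first. It was replaced after its values had been seen, because it moved the median change of all genes to -0.50, and it is kept as an alternative. Alternatives used DESeq2 1.42.0 and limma 3.58.1 (voom). Scripts were tested on simulated data with a spread near the 0.0490 of experiment 2 and below the 0.299 of experiment 1. How the fits behave at the larger spread was not tested.

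All members, HDDC3, and from each list up to 3 genes called in the same direction and up to 2 in opposite directions, at 1 CPM or more in each experiment and ranked by the smaller change, are named. Same-numbered libraries of siMESH1 and siNT deviated together with correlations from -0.0795 to 0.302 in experiment 1 and from -0.0942 to 0.0359 in experiment 2, so the numbers were not taken as pairs. The result of 1 listed marker gene is not reported here.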

Additional observations from a re-analysis of the deposited data

Results flagged for a closer look

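The change differed between the siRNAs in the 12-library edgeR fit (adjusted p under 0.05) for 7 members, by CA9 (-3.26), VEGFA (-2.94), EGLN3 (2.45), SLC2A1 (-1.87), EPAS1 (-0.59), KDM3A (0.41) and VHL (0.35) on the log2 scale, siMESH1#1 minus siMESH1#2. It also differed for 18 named genes of the wider lists. The change with siMESH1#1 was the more negative for HK2 (-1.02), GPI (-3.19), TPI1 (-2.68), PFKFB3 (-1.80), PFKFB4 (-4.43), HILPDA (-0.92), CA12 (-2.28), ADM (-0.74), ANGPTL4 (-8.20), MMP14 (-3.02), CCND1 (-2.21) and TGFA (-1.29). It was the more positive for CUL2 (0.65), CITED2 (2.07), BHLHE41 (1.70), MXI1 (1.34), AK4 (1.47) and LOX (0.80). Across all genes tested, 69.7% differed in the same test. The siRNA, the experiment and the lanes cannot be told apart in these differences, and the part of the GC trend in them was not tested for the wider lists.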

How the results depend on the processing

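Counting error is small for these members, whose lowest library held 59 reads (CA9 with siMESH1#1). Members higher with siMESH1#1 numbered 5, against 3 at an adjusted p under 0.01 and 2 with GC correction by centred smooths, an alternative chosen after seeing the data, under which 6 rather than 3 were lower. The uncentred GC correction gave 4 higher and 3 lower, so the split between higher and lower members depends on the centring. Leaving out 1 library gave 3 to 5 higher, the 3 without siNT replicate 1 of experiment 1. In a model of 4 groups, siMESH1#2 gave 4 members called (3 higher, 1 lower) in place of 8, and 2582 genes in place of 7235. The calls lost there were those of SLC2A1, HIF1A, ARNT and VEGFA (edgeR adjusted p = 0.530, 0.294, 0.254 and 0.161). Library size scaling moved the median change of all genes with siMESH1#1 to -0.31.

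Directions turned as follows. With siMESH1#1, HIF1A was at -0.24 with GC correction, -0.39 with GC and length correction, -0.93 with centred smooths and -0.24 with the replicate block and GC correction. EGLN1 was at -0.10 with GC and length correction and -0.63 with centred smooths, and KDM3A at -0.038 with centred smooths. EPAS1 was at -0.16 with library size scaling, -0.083 with at least 10 counts in every library and -0.052 in the model of 4 groups, and ARNT at 0.00036 in lanes 4 and 6. EGLN1 with siMESH1#2, near 0, was at -0.010 (library size), -0.0068 (at least 10 counts), -0.0065 (GC and length), -0.032 (centred smooths), -0.0074 (4 groups) and -0.021 to 0.029 without 1 library, where the negative values were -0.021, -0.0056, -0.013 and -0.0043. The difference between siRNAs turned for ARNT (0.027 with DESeq2 and with RLE), HIF1A (-0.49 GC, -0.51 GC and length, -1.31 centred, -0.49 block and GC), EPAS1 (0.48, 0.41 and 0.42 with GC, GC and length, and block and GC), EGLN1 (-0.0083, -0.057, -0.86 and -0.020 in the order of HIF1A), VHL (-0.49 centred) and KDM3A (-0.72 centred). The cause was not tested. VHL, EGLN3, VEGFA and SLC2A1 kept their direction and call with siMESH1#1 under all 20 alternatives. With the replicate block alone, 7 members were called with siMESH1#1 and 7 with siMESH1#2, and the difference was called for 6.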
